A study of Caenorhabditis elegans with 6 samples.

Results

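Superoxide dismutases and catalases were followed in starved L1 larvae of Caenorhabditis elegans that lack normal function of spr-5 and met-2, with wild-type larvae as the comparison. The members were chosen by gene name as sod-1, sod-2, sod-3, sod-4, sod-5, ctl-1, ctl-2 and ctl-3, and every transcript record that RefSeq names with one of these symbols was taken. The rule found 11 records of these 8 genes, of 50832 records in each count table, 46074 of which could be named. The spr-5; met-2 group, called the double mutant below, consisted of 3 libraries of animals with the allele by101 of spr-5 on chromosome I and the allele n4256 of met-2 on chromosome III, and the N2 group of 3 libraries of the wild-type strain N2. SPR-5, the worm counterpart of LSD1, removes methyl groups from histone H3 and MET-2, the counterpart of SETDB1, adds them, and the comparison was made to find genes expressed differently in the progeny of the double mutant. All parents were grown at 20 °C on HT115, an Escherichia coli strain commonly used for feeding RNAi, and each sample pooled whole larvae, about 1000 to 1500 of them, that hatched overnight without food at 21 to 22 °C.

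Superoxide is a by-product of respiration and of oxidase enzymes. Superoxide dismutases convert it to oxygen and hydrogen peroxide, and catalases break hydrogen peroxide down to water and oxygen. In C. elegans, SOD-1 is the main copper/zinc enzyme of the cytosol and SOD-5 a second cytosolic form, SOD-2 and SOD-3 are the manganese enzymes of mitochondria, and SOD-4 is a copper/zinc enzyme made as secreted and membrane-bound forms. CTL-1 is a cytosolic catalase and CTL-2 the peroxisomal one, and ctl-3 is the third gene of the same cluster. Several of these genes, sod-3 above all, are known targets of DAF-16, the FOXO transcription factor held back by insulin signalling, and sod-3 is widely used as a reporter of its activity.

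The libraries held 17062557 to 25368364 counts in the double mutant and 20010959 to 22014739 in N2. Levels are CPM, counts scaled to a common library total, after TMM scaling, which corrects library sizes for differences in composition. The labels leave out whether replicates were separate cultures, so a p-value here speaks only of the spread between libraries, and that spread may be technical. Levels of the mutated genes did not check the labels, because both transcripts were present in both groups: spr-5 stood at 116 to 129 CPM in the double mutant and at 47.5 to 66.2 CPM in N2, and met-2 averaged 82.6 ± 4.03 CPM in the double mutant and 111 ± 9.35 CPM in N2 (SD, n = 3 each). Every direction given here thus rests on the label of a library. Markers of intestine, muscle, pharynx and neurons were detected in every library of these whole-animal samples. The 5 pharyngeal markers summed to 6146 to 7805 CPM in the double mutant and 8614 to 12098 CPM in N2 without overlap, and 2 of them fell and 0 rose. Of the 4 body wall muscle markers with a record, which summed to 10817 to 12694 CPM in the double mutant and 10497 to 17504 CPM in N2, 2 fell and 0 rose. The 5 neuronal markers with a record summed to 1068 to 1275 CPM in the double mutant and 1224 to 1645 CPM in N2, with 0 called. The 7 intestinal markers with a record summed to 1898 to 1992 CPM in the double mutant and 1901 to 2264 CPM in N2, with none at 0. Of them 3 rose, elt-2, ifb-2 and pho-1, and 2 fell, ges-1 and vha-6. In each of these tissues a single gene made up most of the sum. These genes were myo-2 in pharynx, unc-54 in body wall muscle, egl-21 in neurons and act-5 in intestine. They averaged 6071, 9189, 1090 and 1279 CPM in the double mutant and 7864, 9664, 1360 and 1153 CPM in N2, and none was called. The 5 germline markers summed to 562 to 624 CPM in the double mutant and 41.3 to 75.4 CPM in N2, with pgl-1 at 0 in every library. Of them 2 rose, glh-1 and deps-1, and 0 fell. Most of the sum was glh-1 alone, at 534 to 596 CPM in the double mutant and 34.6 to 59.7 CPM in N2. Among the 5 epidermal markers elt-3 was at 0 throughout, and the cuticle collagen gene dpy-7 stood at 4.75, 53.3 and 19.8 CPM in double-mutant replicates 1, 2 and 3 and at 2.31, 45.1 and 4.25 CPM in those of N2, so that replicate 2 was highest in both groups. Markers of adults and older larvae summed to 0.361, 13.3 and 0.960 CPM in the double mutant and to 0.274, 1.39 and 68.2 CPM in N2, with N2 replicate 3 standing apart, and vit-6 at 0 throughout. How reads shared between records were counted is not stated, so a record at 0 need not mean a silent gene.

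Of the 8 genes, 3 fell and 1 rose in the double mutant. The mitochondrial gene sod-3 was 6.59-fold lower, the cytosolic gene sod-5 4.28-fold lower and the mitochondrial gene sod-2 1.49-fold lower, while ctl-3 was 3.07-fold higher. Levels of sod-1, sod-4, ctl-1 and ctl-2 did not pass the test. Of the 11 records, 2 had no count in any library and 9 were tested, and each of these 9 was at or above the filter level of 0.486 CPM in all 6 libraries, so none owed its place in the test to 1 group. The called records were 44.4% of the 9, against 25.9% of all 14557 tested records (14.3% rising and 11.7% falling). A record was called where its p from edgeR's quasi-likelihood test, adjusted across every tested record by the Benjamini-Hochberg method, was below 0.05. Leaving out 1 library lowered these counts. Without N2 replicate 2, N2 replicate 3 or any 1 of the double-mutant replicates, 1 record in place of 3 fell. Without N2 replicate 2 or double-mutant replicate 2 or 3, 0 in place of 1 rose. Over all records, calls dropped in the same fits too. Falling ones numbered 800 to 1386 in place of 1698, and rising ones 1410 to 1587 in place of 2075. Of the 9 records 5 had groups that did not overlap, against 43.6% of all tested records (21.3% with the double mutant lower and 22.3% with the double mutant higher). With CPM on library size only, a scaling compared after the values were seen, 3 of the 9 did not overlap, against 43.1% of all tested records, and these were the records of sod-1, sod-3 and ctl-3. In whole animals, fewer cells of a type and less RNA per cell cannot be told apart. Among the tissue markers 2 of pharynx, 2 of body wall muscle and 2 of intestine fell. In turn 3 of intestine and 2 of germline rose. The part of such marker changes in the falls of sod-2, sod-3 and sod-5 was not tested.

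**Figure D1:**
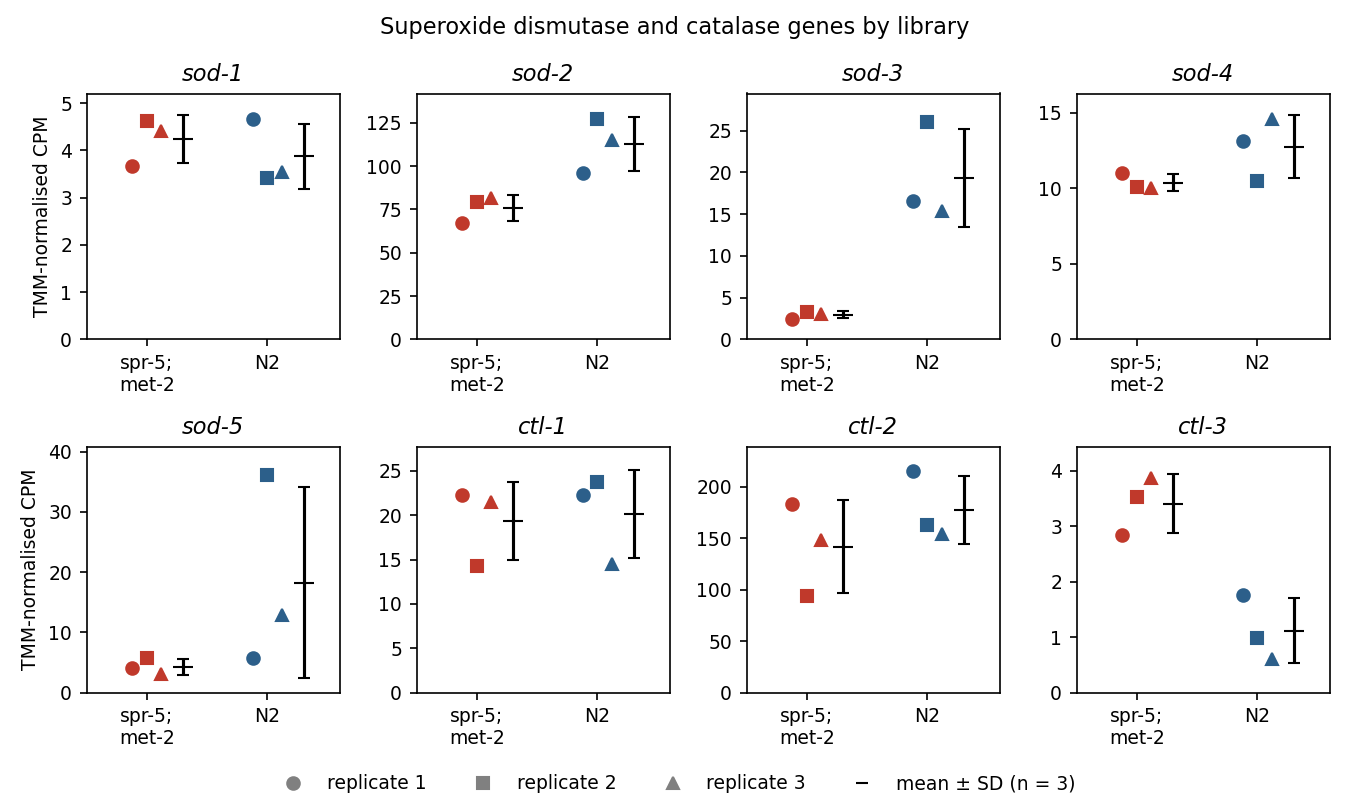
Level of the most abundant record of each gene in every library, in TMM-normalised CPM on linear axes that start at 0, with replicates as symbols and the mean ± SD (n = 3) as a bar. On this scale the double-mutant libraries lie wholly below N2 for sod-2, sod-3 and sod-5 and wholly above N2 for ctl-3; N2 replicate 2 stands at 36.1 CPM for sod-5.

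The fall of sod-3 had the smallest adjusted p of the family. Its record had 48, 60 and 85 counts in double-mutant replicates 1, 2 and 3 and 303, 528 and 307 counts in those of N2. These counts gave 2.48, 3.31 and 3.02 CPM in the double mutant, against 16.6, 26.1 and 15.4 CPM in N2. The highest mutant library thus lay far below the lowest N2 library, and N2 replicate 2 was the highest of all. The log2 fold change was -2.72 ± 0.26 (SE, 95% interval -3.33 to -2.11, edgeR adjusted p = 0.000276), and 0.46% of all tested records had a log2 fold change that low or lower. It passed in all 14 alternatives that kept the threshold of 0.05 and at the stricter one of 0.01, with log2 fold changes of -2.89 to -2.45 and adjusted p between 7.63e-19 and 0.00268. The authors' deposited table gives a log2 fold change of -2.62 with an adjusted p of 6.07e-19. On the opposite strand, 65 exonic bases of sod-3 overlap C08A9.3 and 24 overlap lido-1, and the strand setting used in counting is not stated.

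The other manganese enzyme gene, sod-2, was lower by a smaller amount. It stood at 67.2, 79.3 and 81.3 CPM in the double mutant and at 96.1, 127 and 115 CPM in N2, and the groups did not overlap. With CPM on library size only they did overlap, at 72.0, 84.3 and 90.1 CPM in the double mutant and 79.5, 121 and 115 CPM in N2. On the opposite strand, 21 exonic bases of sod-2 overlap dpt-1. The log2 fold change was -0.57 ± 0.14 (SE, 95% interval -0.90 to -0.24, edgeR adjusted p = 0.0220). In the authors' deposited table it is -0.55 with an adjusted p of 0.0117. The call rested on most of the libraries: it was lost without N2 replicate 2 (adjusted p = 0.0779), without N2 replicate 3 (0.0537), and without double-mutant replicate 1 (0.0637), 2 (0.0557) or 3 (0.0618). It was also lost when libraries were scaled by their totals alone (log2 fold change -0.36, adjusted p = 0.190). That scaling moves the median of all records to 0.21, from -0.01. The call was kept in 8 of 14 alternatives, among them DESeq2 (adjusted p = 0.0118) and edgeR with the replicate number as a block (0.00466).

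Per length, sod-2 was the more abundant of the mitochondrial pair in both groups. Over 802 exonic bases sod-2 averaged 94.6 ± 9.51 CPM per kilobase in the double mutant and 141 ± 19.3 CPM per kilobase in N2 (SD, n = 3 each). Over 881 exonic bases sod-3 averaged 3.33 ± 0.477 CPM per kilobase in the double mutant and 22.0 ± 6.68 CPM per kilobase in N2. The genes share an exon layout, with 173 bases in exon 2 and 137 bases in exon 3 of both in the Ensembl annotation of WBcel235. Within a library, counts of sod-3 were 0.0373, 0.0420 and 0.0374 times those of sod-2 in double-mutant replicates 1, 2 and 3, against 0.173, 0.206 and 0.133 times in those of N2. The ratio was lower in every mutant library than in any N2 library. The difference in the log2 ratio was -2.12, with a 2-sided exact permutation p of 0.10, the smallest that 3 against 3 libraries allow (0.150 adjusted over the 3 ratios compared).

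Of the cytosolic copper/zinc genes, sod-5 was lower in the double mutant and varied widely in N2. It had 78, 104 and 88 counts in the double mutant and 106, 730 and 258 counts in N2. In CPM, the mutant libraries were at 4.03, 5.73 and 3.13 and the N2 libraries at 5.82, 36.1 and 12.9. The groups did not overlap on this scale, but N2 replicate 1 lay just above double-mutant replicate 2, and N2 replicate 2 was far above the rest. With CPM on library size only the order of that pair turned, with double-mutant replicate 2 at 6.10 CPM and N2 replicate 1 at 4.81 CPM, and the groups overlapped. The log2 fold change was -2.10 ± 0.61 (SE, 95% interval -3.51 to -0.68, edgeR adjusted p = 0.0394). Without N2 replicate 2 it was -1.14 (adjusted p = 0.101). The call was also lost without N2 replicate 3 (adjusted p = 0.0580), without double-mutant replicate 1 (0.0874), 2 (0.0744) or 3 (0.131), with limma voom (0.0881) and with library size only (0.0533). It was kept in 7 of 14 alternatives, among them DESeq2 (adjusted p = 0.000786) and edgeR with the replicate number as a block (0.00656). The authors' deposited table gives a log2 fold change of -1.87 with an adjusted p of 0.000769. The library highest for sod-5 was also the N2 library highest for sod-3, for dpy-7 and for the metallothionein gene mtl-1 (163 CPM, against 67.5 CPM in N2 replicate 1), and whether this had a part in the sod-5 result was not tested.

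The main cytosolic gene, sod-1, did not pass the test. One of its records, NM_001026785, had 71, 84 and 124 counts in the double mutant and 85, 69 and 71 counts in N2, and the other, NM_001026786, had 0 counts in all libraries. In the Ensembl annotation the shorter of 2 sod-1 transcripts, of 477 bases, has 0 bases of its own, and the longer, of 720 bases, has 243. How reads in shared exons were counted is not stated, so reads may be missing from both records, and no level per length is given. The counted record stood at 3.67, 4.63 and 4.41 CPM in the double mutant and at 4.67, 3.41 and 3.55 CPM in N2, and the groups overlapped (with CPM on library size only they did not, the double mutant being higher). Its log2 fold change was 0.13 ± 0.23 (SE, edgeR adjusted p = 0.727), with a 95% interval of -0.40 to 0.66. The non-coding gene C15F1.13 overlaps 85 exonic bases of sod-1 on the opposite strand. The ratio of sod-5 to sod-1 counts was 1.10, 1.24 and 0.711 in the double mutant and 1.25, 10.5 and 3.62 in N2, a difference of -1.87 in the log2 ratio (exact permutation p = 0.10, 0.150 adjusted over 3 ratios) that came to -1.10 without N2 replicate 2 and -2.64 without N2 replicate 1.

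The gene of the extracellular enzyme, sod-4, did not pass the test with either record. The more abundant record, NM_001268073, stood at 11, 10.1 and 10.0 CPM in the double mutant and at 13.1, 10.5 and 14.6 CPM in N2, with overlapping groups. Its log2 fold change was -0.29 ± 0.18 (SE, 95% interval -0.71 to 0.12, edgeR adjusted p = 0.277). The second record, NM_001268074, was at 0.981, 0.882 and 1.14 CPM in the double mutant and at 1.76, 1.19 and 2.0 CPM in N2. Here the groups did not overlap, with a log2 fold change of -0.71 ± 0.32 (SE, 95% interval -1.45 to 0.03, edgeR adjusted p = 0.144). The 4 Ensembl transcripts of the gene have 525 bases in common, so the levels of the 2 records depend on how shared reads were counted, and 175 exonic bases lie opposite ctr-9.

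**Figure D2:**
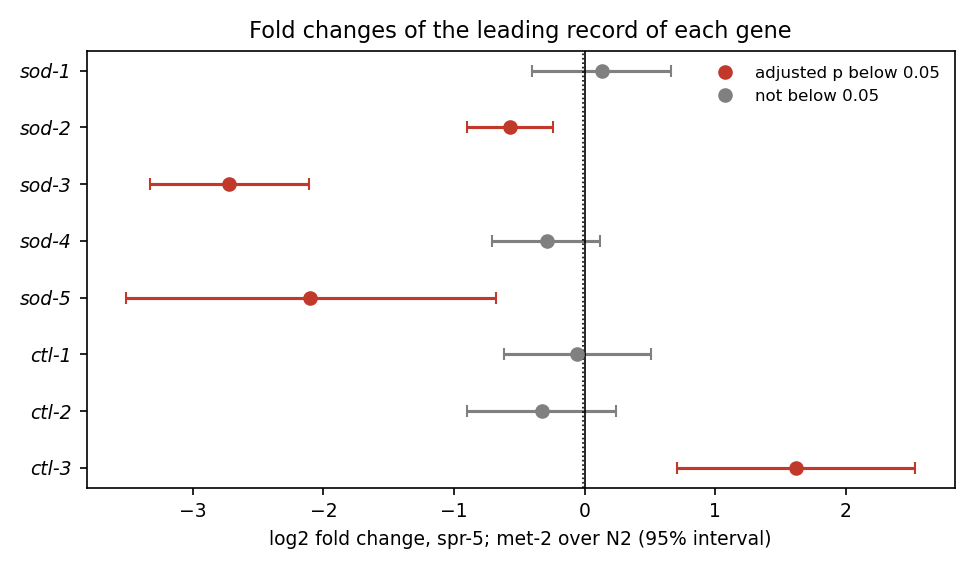
Log2 fold change of the double mutant over N2 for the most abundant record of each gene, with 95% intervals from edgeR's quasi-likelihood fit, the solid line at 0 and the dotted line at the median of all tested records (-0.01). The intervals of sod-2, sod-3 and sod-5 lie below 0 and that of ctl-3 above 0; the other 4 cross 0.

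The catalase genes did not move together. ctl-2, ctl-1 and ctl-3 follow each other on chromosome II with no other annotated gene between them, and each has an exon of 645 bases followed by one of 273 bases, so reads could be shared between these close copies and each value is uncertain to that extent. The peroxisomal gene ctl-2 stood at 183, 93.5 and 148 CPM in the double mutant and at 215, 163 and 154 CPM in N2. The groups overlapped and double-mutant replicate 2 was the lowest. On the opposite strand, 65 exonic bases of ctl-2 overlap Y54G11A.7. The log2 fold change was -0.33 ± 0.25 (SE, 95% interval -0.90 to 0.24, edgeR adjusted p = 0.373). The cytosolic gene ctl-1 stood at 22.3, 14.3 and 21.5 CPM in the double mutant and at 22.3, 23.7 and 14.5 CPM in N2, with 1 low library in each group. Its log2 fold change was -0.06 ± 0.25 (SE, 95% interval -0.62 to 0.51, edgeR adjusted p = 0.892), and its sign turned positive in 4 of the 14 alternatives. Per length, ctl-2 averaged 87.8 ± 28.0 CPM per kilobase in the double mutant and 110 ± 20.5 CPM per kilobase in N2, and ctl-1 averaged 12.5 ± 2.83 CPM per kilobase in the double mutant and 13 ± 3.22 CPM per kilobase in N2 (SD, n = 3 each). Counts of ctl-1 were 0.122, 0.154 and 0.145 times those of ctl-2 in the double mutant, against 0.104, 0.146 and 0.0940 times in N2, and these ratios overlapped (difference in the log2 ratio 0.31, exact permutation p = 0.300, also 0.300 adjusted over 3 ratios). Within pairs of the same replicate number the log2 ratio was higher in the double mutant in 3 of 3, by 0.24, 0.07 and 0.63 (paired exact permutation p = 0.25, 2-sided, the smallest that 3 pairs allow).

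The third catalase gene, ctl-3, was the member that rose. Its counted record, NM_171051, had 55, 64 and 109 counts in the double mutant and 32, 20 and 12 counts in N2. The levels were 2.84, 3.53 and 3.87 CPM in the double mutant and 1.76, 0.990 and 0.600 CPM in N2, and every mutant library lay above every N2 library. The log2 fold change was 1.62 ± 0.39 (SE, 95% interval 0.71 to 2.53, edgeR adjusted p = 0.0196), and the authors' deposited table gives 1.51 with an adjusted p of 0.00150. The call was lost without N2 replicate 2 (adjusted p = 0.0701), without double-mutant replicate 2 (0.0568) and without double-mutant replicate 3 (0.0802). The second record, NM_001306611, had 0 counts in all libraries, where 3 counts would be 0.118 to 0.176 CPM. In the annotation the shorter of 2 ctl-3 transcripts has 0 bases of its own and the longer has 149 of its 1631, so the counted reads may come from only part of the gene.

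**Figure D3:**
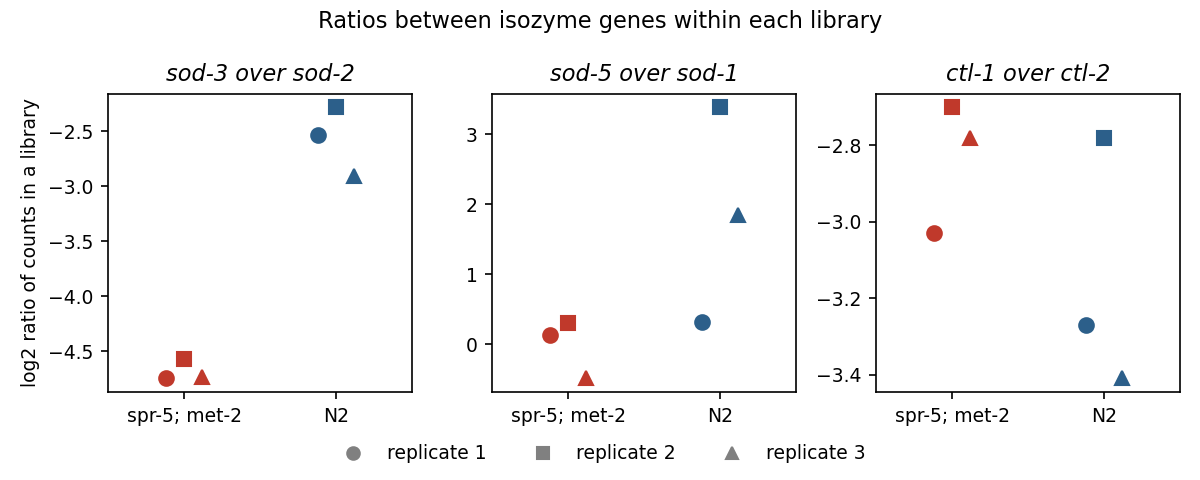
Log2 ratio of the counts of 2 genes within each library (0.5 added to each count), for sod-3 over sod-2, sod-5 over sod-1 and ctl-1 over ctl-2, with replicates as symbols. The sod-3 over sod-2 ratio is -4.75 to -4.57 in the double mutant and -2.91 to -2.28 in N2; the ctl-1 over ctl-2 ratios overlap.

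By level per length, the order of the 5 genes with a single record depended on the group. In the double mutant it was sod-2, ctl-2, ctl-1, sod-5 and sod-3, and in N2 it was sod-2, ctl-2, sod-5, sod-3 and ctl-1. sod-2 and ctl-2 lay within their spread of each other in the double mutant (83.8 to 101 and 58.0 to 114 CPM per kilobase) and also overlapped in N2 (120 to 158 and 95.6 to 134 CPM per kilobase). sod-5 averaged 6.08 ± 1.87 CPM per kilobase in the double mutant and 25.9 ± 22.4 CPM per kilobase in N2, and in N2 its range of 8.24 to 51.2 spanned both sod-3 and ctl-1. In the double mutant the libraries of ctl-1 (9.22 to 14.4 CPM per kilobase) lay above those of sod-3 (2.81 to 3.75), whereas in N2 those of sod-3 (17.4 to 29.7) lay above those of ctl-1 (9.30 to 15.3).

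Other genes that remove or make peroxides moved in both directions. Of 62 genes in 8 lists, 60 had a record and 53 were tested at their most abundant record, of which 7 rose and 5 fell, that is 22.6% against 25.9% of all tested records, with a median log2 fold change of 0.03 against -0.01. With the replicate number as a block, 11 rose and 7 fell, beside 2755 and 2374 of all records. With library size only 11 rose and 4 fell, beside 2881 and 828 of all records. The main fit had 2075 rising and 1698 falling records. Of the 12 called genes, 10 were at or above the filter level of 0.486 CPM in all 6 libraries, while trx-5 and skpo-1 reached it in all libraries of the double mutant only. These passed the filter through the group where they are high, so their calls add nothing to the count of rising genes. The 22.6% includes both. Without them 5 rose. Both are also among the 11 that rose with the replicate number as a block and the 11 that rose with library size only. With trx-5 and skpo-1 counted, 3 in place of 7 rose without N2 replicate 2, double-mutant replicate 2 or double-mutant replicate 3. skpo-1 was among the 3 each time. In place of 5, 3 fell without N2 replicate 2 or double-mutant replicate 3. Over all records, 1410 to 1587 rose in place of 2075 in the former fits. In the latter, 1121 and 800 fell in place of 1698. Among the glutathione peroxidases, which reduce hydrogen peroxide or lipid peroxides, 2 of 5 tested rose and 2 fell. gpx-4 averaged 7.32 ± 1.01 CPM in the double mutant and 0.973 ± 0.154 CPM in N2 (SD, n = 3 each), for a log2 difference of 2.90 ± 0.25 (SE, edgeR adjusted p = 0.000154). gpx-7 averaged 6.57 ± 1.21 CPM in the double mutant and 16 ± 5.46 CPM in N2, for a log2 difference of -1.28 ± 0.28, and gpx-3 was at -0.79 ± 0.17. Of 2 tested peroxiredoxins, the mitochondrial one, prdx-3, fell, averaging 166 ± 15.4 CPM in the double mutant and 251 ± 29.0 CPM in N2 (log2 fold change -0.60 ± 0.13 SE, edgeR adjusted p = 0.0142). Its log2 fold change lay close to the -0.57 of sod-2 and far from the -2.72 of sod-3, whose products work in the same compartment. A shared change of mitochondrial genes was not tested. The prdx-3 call was lost without N2 replicate 2 (adjusted p = 0.0569), without double-mutant replicate 3 (0.0577) and with library size only (0.129). Those of gpx-3, gpx-4 and gpx-7 passed in all 14 alternatives at a threshold of 0.05, but gpx-3 (adjusted p = 0.0137) and gpx-7 (0.0121) did not pass the stricter threshold of 0.01. The 1 record of the cytosolic prdx-2 was not tested, with 0.246 ± 0.169 CPM in the double mutant and 0.156 ± 0.0606 CPM in N2. It had 2 to 8 counts per library. Reads shared with other records may be missing from it, so this need not be the level of the gene.

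Of the remaining redox genes, gcs-1 rose and both metallothionein genes fell. gcs-1, which encodes the rate-limiting enzyme of glutathione synthesis and is a standard target of the SKN-1 transcription factor, rose, averaging 110 ± 13.7 CPM in the double mutant and 65.9 ± 9.83 CPM in N2 (log2 fold change 0.73 ± 0.15 SE, edgeR adjusted p = 0.0109), and the other 3 genes of glutathione synthesis and reduction did not pass. Of 12 tested thioredoxin and glutaredoxin genes, 2 rose, txl-1 at 0.59 ± 0.17 and trx-5 at 2.13 ± 0.61 (log2 fold change, SE), with trx-5 averaging 0.847 ± 0.332 CPM in the double mutant and 0.192 ± 0.140 CPM in N2, where it was below the filter level in every library. The trx-5 call was lost without N2 replicate 2 (adjusted p = 0.102), N2 replicate 3 (0.0897) or double-mutant replicate 2 (0.111), and the gene was not tested without double-mutant replicate 3 or with the filter of 1 CPM in 3 libraries. That of txl-1 was lost without N2 replicate 1 (0.103), 2 (0.0690) or 3 (0.121) and without double-mutant replicate 2 (0.120) or 3 (0.117). The metallothionein genes, which encode small metal-binding proteins, both fell. mtl-2 averaged 18.8 ± 3.25 CPM in the double mutant and 54.2 ± 12.7 CPM in N2, for a log2 difference of -1.53 ± 0.22 (SE, edgeR adjusted p = 0.00189). mtl-1, also known as a DAF-16 target, averaged 40.7 ± 12 CPM in the double mutant and 109 ± 49.1 CPM in N2, for a log2 difference of -1.42 ± 0.35 (SE, edgeR adjusted p = 0.0198). The mtl-1 call was lost without N2 replicate 2 (adjusted p = 0.0514) and without double-mutant replicate 3 (0.0557), whereas gcs-1 and mtl-2 passed in all 14 alternatives at a threshold of 0.05. At 0.01 mtl-2 passed and gcs-1 did not.

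Of peroxide producers, peroxisome genes and regulators, 12.5%, 10.0% and 0.0% were called, against 25.9% of all tested records, and lists of 8 to 10 genes are too short to set against that share. Of 8 peroxide-producing oxidases, their partners and haem peroxidases, skpo-1 rose, averaging 4.56 ± 2.07 CPM in the double mutant and 0.675 ± 0.502 CPM in N2 (log2 fold change 2.73 ± 0.56 SE, edgeR adjusted p = 0.00978). It was below the filter level in N2 replicates 1 and 2 and passed the filter through the group where it is high. Its call, the only one behind the 12.5%, thus adds nothing to the count of rising genes. The same holds for its passing in all 14 alternatives at a threshold of 0.05. Without N2 replicate 3 its log2 fold change was 3.51. Of 10 tested genes for peroxisome import and assembly, prx-10 rose (log2 fold change 0.87 ± 0.22, SE), a call lost without N2 replicate 2 (adjusted p = 0.0817) and without double-mutant replicate 1 (0.0761), 2 (0.0735) or 3 (0.0543). Of 12 regulators, daf-2 and smk-1 were not tested. None of the 10 tested, which include daf-16, skn-1 and kinases of insulin signalling, passed in edgeR. Of these, 2 had an unadjusted p under 0.05, and DESeq2 and limma voom called 0. The most abundant of 7 daf-2 records had 4 to 11 counts per library. Reads shared between records may be missing from it and from the 1 of 3 daf-16 records used here. daf-16 itself averaged 7.51 ± 1.52 CPM in the double mutant and 5.4 ± 2.83 CPM in N2 (named after its value was seen; log2 fold change 0.48 ± 0.38 SE, edgeR adjusted p = 0.404). The most abundant regulator was pqm-1, a transcription factor that acts on many of the same stress genes, at 168 ± 26.7 CPM in the double mutant and 177 ± 34.5 CPM in N2.

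**Figure D4:**
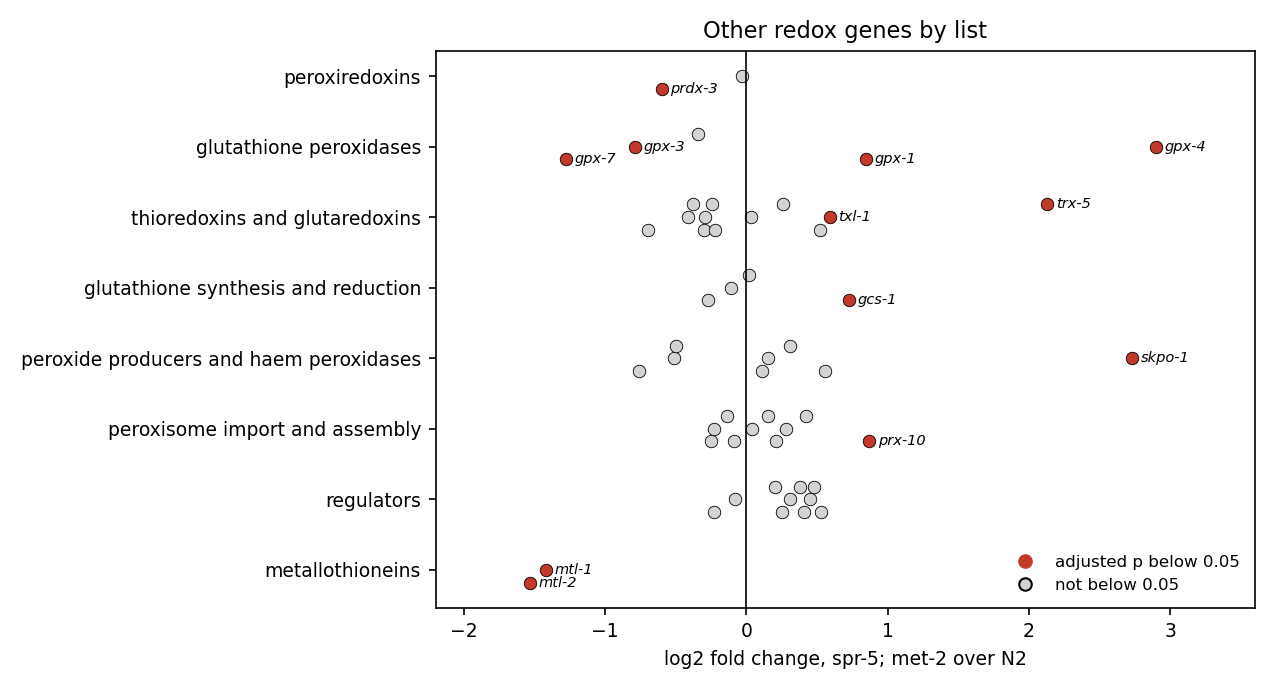
Log2 fold change of the double mutant over N2 for the 53 tested genes of 8 redox lists, 1 point per gene, with genes at an adjusted p below 0.05 in red and named. Calls lie on both sides of 0 among the glutathione peroxidases, both metallothionein genes lie below 0, and none of the 10 regulators was called.

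The records whose pattern over the 6 libraries was nearest to that of sod-3 were sought by the Euclidean distance between log2 CPM values centred on their mean, among all named tested records. Likeness of pattern was the criterion of choice, so their falls are a description. The nearest was the gene H04M03.3 (distance 0.337), at 1.14, 1.49 and 1.14 CPM in the double mutant and 7.74, 9.60 and 6.60 CPM in N2. Next came the non-coding record R07E4.7 (distance 0.351), at 0.207 to 0.276 CPM in the double mutant and 1.80 to 2.87 CPM in N2. Like sod-3, both were highest in N2 replicate 2. The others were the collagen gene col-80 (distance 0.716), the gene ZK154.1 (0.735) and the aspartyl protease gene asp-8 (0.740). Of these, asp-8 stood at 22.2, 19 and 29.1 CPM in the double mutant and 128, 163 and 154 CPM in N2.

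**Figure D5:**
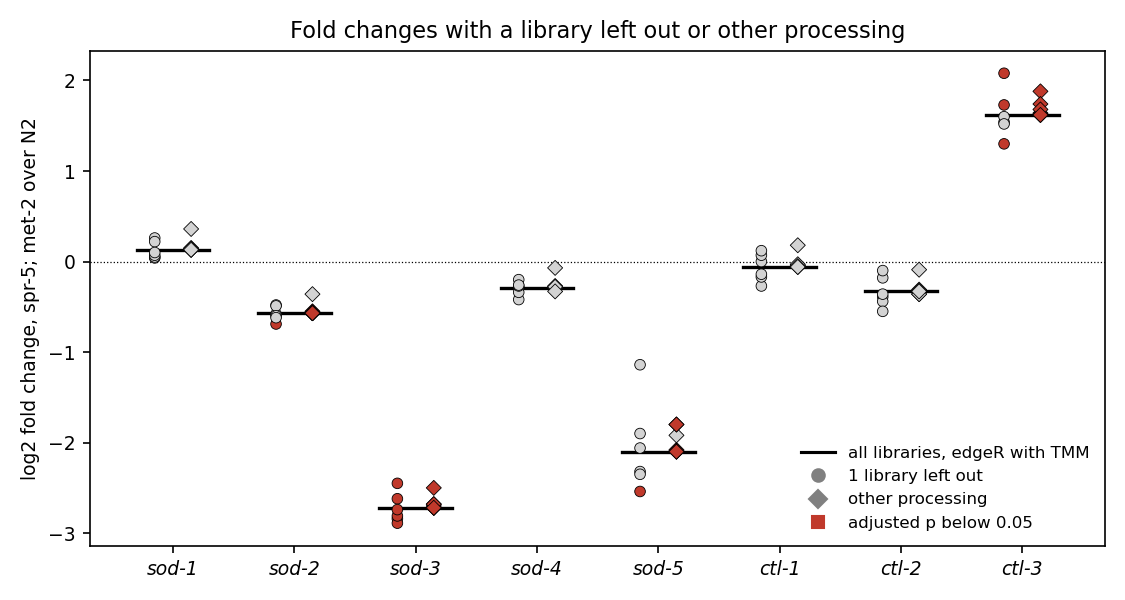
Log2 fold change of the double mutant over N2 for each gene with all libraries (line), with 1 library left out (circles, 6 per gene) and with other processing (diamonds, 8 per gene), red where the adjusted p is below 0.05. All points of sod-3 are red and lie between -2.89 and -2.45; those of sod-5 reach from -2.54 to -1.14 and those of ctl-1 lie on both sides of 0.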

How the data were processed

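The authors' files give raw read counts for each RefSeq transcript record. The submitters' processing notes name FastQC, Trimmomatic, featureCounts, DESeq2 2.11.40.2 and ce10 without saying what each was for. HISAT2 alignments and the vector name L4440 appear in the column names, per the file headers. The treatment of reads shared between records, and of strand, is not given in the sources used here. In their deposited comparison table the authors give base mean signal, log2 fold change with its standard error, Wald score, p-value and adjusted p-value for each record, per the file headers, and positive log2 values mean higher in spr-5; met-2.

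Records were named through a RefSeq gene table of assembly WBcel235, version dropped. Exonic lengths and overlaps come from the Ensembl annotation of WBcel235, not the authors' build, so no coordinates are given, and no sequence is shown. Records were filtered with filterByExpr (minimum count 10, minimum total 15), which left 14557. They were scaled by TMM, with factors of 0.827 to 0.999 in N2 and 1.06 to 1.11 in the double mutant. The factors thus differed by group, and TMM lowered double-mutant levels against N2 relative to library size only. Tests were 2-sided quasi-likelihood tests of edgeR 4.0.16 (R 4.3.3) over all 6 libraries, with Benjamini-Hochberg adjustment and a threshold of 0.05. The SE is the log2 fold change divided by the square root of F. The fit was tested on simulated counts. Limits from a count of 0 (3 counts) cover counting error only.

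Deviations from the group means correlated between libraries with the same number (0.456, 0.356 and 0.186 for replicates 1, 2 and 3), so the numbers were taken to pair the libraries, on the evidence of these data alone. The main edgeR fit and the main ratio tests were unpaired. The pairing entered only the replicate block and the paired ratio tests. Alternatives were DESeq2's size factors, library size only, no count filter, 1 CPM in 3 libraries, DESeq2 1.42.0, limma voom (3.58.1), the replicate block, records summed per gene, each library left out and an adjusted p below 0.01.

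The genes named are all 8 members; up to 3 called genes of each list with the smallest adjusted p, or its most abundant gene; the 5 records nearest to the member with the smallest adjusted p; and spr-5 and met-2. Genes named outside this rule, after their values were seen, are gene neighbours, prdx-2, daf-2, smk-1, daf-16 and tissue markers. Members and lists were chosen with earlier results of these data known.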

Additional observations from a re-analysis of the deposited data

How the results depend on the processing

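Under the 14 alternatives at a threshold of 0.05 all fold changes of sod-1, sod-2, sod-3, sod-4, sod-5, ctl-2 and ctl-3 kept their sign. With library size only, 1 member record fell in place of 3, sod-2 was at -0.36 and sod-5 at -1.92 without a call, ctl-1 turned to 0.18, and 11 list genes rose in place of 7. With limma voom sod-5 was at -1.80 without a call. In the paired fit with the replicate block the calls of the members were the same in number, 1 rising and 3 falling. The edgeR adjusted p there was 0.00466 for sod-2, 3.56e-05 for sod-3, 0.00656 for sod-5 and 0.0123 for ctl-3. In that fit 11 list genes rose, among them trx-5 and skpo-1, as in the 11 with library size only. Calls over all tested records went up in the paired fit, from 2075 to 2755 rising and from 1698 to 2374 falling. At an adjusted p below 0.01, 0 of the 9 tested member records rose and 1 fell. Of all 14557 tested records, 1214 rose and 665 fell at that threshold. Of list genes 2 rose, gpx-4 and skpo-1, and 1 fell. skpo-1 passed the filter through the group where it is high, so its call adds nothing to this count. The lower counts follow from the stricter threshold. With 1 library left out, 0 to 1 member records rose and 1 to 3 fell. Of list genes, 3 to 6 rose and 3 to 6 fell. Those that rose included skpo-1 in every such fit and trx-5 in some, and neither adds to the count. Over all records 1410 to 2046 rose and 800 to 1803 fell, and these fits have fewer libraries. In them the log2 fold change of sod-2 ranged from -0.69 to -0.48, of sod-5 from -2.54 to -1.14, of ctl-1 from -0.27 to 0.12 and of ctl-3 from 1.30 to 2.08, and sod-2 and sod-5 kept their calls only without N2 replicate 1. The isozyme ratios kept their direction in these fits and over replicate pairs, compared after the data were seen (block differences -2.12, -1.87 and 0.31, paired exact permutation p = 0.25 each). The list gene pqm-1, which was not called, was at -0.08, but was 0.16 with library size only and ran from -0.18 to 0.08 with 1 library left out, above 0 without N2 replicate 1 (0.08) or double-mutant replicate 3 (0.05). Other causes were not tested. Records with few counts (sod-1, ctl-3, the second of sod-4) limit what size of change could be detected, and how reads in shared exons were counted is not stated.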
